A study of Sus scrofa with 12 samples.

Results

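Leukocyte miRNAs were measured in the testes of boars of a local and a commercial breed at 30 and 120 days of age. The miRNAs described here are the 16 of 1452 listed entries that are named miR-142, miR-146, miR-150, miR-155 or miR-223, with or without the prefix ssc- and with any arm. Of these, 9 had a mean of at least 10 TPM (tag counts scaled to the total of the library) in at least 1 group and are described library by library, and the other 7 are given by their range.

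Small RNA was sequenced from frozen testis of Hezuo (HZ) and Landrace (LC) boars, with 3 libraries in each of 4 groups. The groups were Ha (HZ, 30 days old), Hb (HZ, 120 days old), La (LC, 30 days old) and Lb (LC, 120 days old). The labels name no treatment and no genotype other than the breed, and call the 3 libraries of a group biological replicates. The methods of the study name 3 boars of each breed at each age, castrated for the sampling, and RNA taken from pooled samples. Whether each library is 1 boar is not said, so p-values measure the spread between these libraries.

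Several of these small RNAs are classical markers of white blood cells. miR-142 is made almost only in cells of the haematopoietic lineage, and both arms of its hairpin are used. miR-150 is abundant in mature lymphocytes, while miR-155 is induced when lymphocytes and macrophages are activated. miR-146a and miR-146b are induced by NF-kB signalling and dampen it by silencing its adaptor proteins. miR-223 is the best known miRNA of neutrophils and monocytes. The testis holds resident macrophages and other leukocytes between its tubules, and blood in its vessels. In whole tissue, fewer cells of a type and less RNA per cell cannot be told apart.

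The sequences below are those of the 9 entries described in full, as the deposited table lists them from 5′ to 3′ with T for U, and are shown because the families and the alternative forms differ by few bases. Capitals mark the seed, bases 2 to 8, with which a miRNA pairs with its targets.
ssc-miR-142-5p: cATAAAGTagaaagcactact
miR-142-x: aCCCATAAagtagaaagcacta
ssc-miR-142-3p: tGTAGTGTttcctactttatgg
ssc-miR-146a-5p: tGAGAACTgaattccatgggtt
ssc-miR-146b: tGAGAACTgaattccataggc
miR-146-x: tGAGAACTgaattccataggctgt
ssc-miR-150: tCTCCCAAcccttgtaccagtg
ssc-miR-155-5p: tTAATGCTaattgtgatagggg
ssc-miR-223: tGTCAGTTtgtcaaatacccc

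The miR-146 entries listed above shared the seed GAGAACT, which these 3 alone of the 1452 entries carried. miR-146-y, from the other strand of the hairpin, has another seed. Counting from 1 at the 5′ end of ssc-miR-146a-5p, ssc-miR-146b differed from it by G18A and T21C, outside the seed. miR-146-x was ssc-miR-146b with 3 more bases at its 3′ end, so the pair had the same seed. By contrast, miR-142-x began 3 bases before ssc-miR-142-5p on the same stretch, which gave it the seed CCCATAA in place of ATAAAGT. Sequences this alike can exchange reads when tags are assigned to entries, so the split between miR-146-x and ssc-miR-146b, and between miR-146a and miR-146b, depends on how the authors assigned them. Outside these families, the only entry with the seed of ssc-miR-142-5p was miR-3964-z, with 26 counts over all libraries.

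In the RefSeq annotation of Sscrofa11.1, MIR142 lay on chromosome 12 from 34609378 to 34609457, and MIR150-1 on chromosome 6 from 54580912 to 54580988. MIR146A lay on chromosome 16 from 63044261 to 63044338, MIR146B on chromosome 14 from 113446854 to 113446952, and MIR155 on chromosome 13 from 189138822 to 189138902. None of these 5 genes lay within the bounds of another annotated gene. The nearest was FCGRT, 115 bp from MIR150-1, and the miR-223 gene was not matched.

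Each library held between 6520197 and 16874633 counts on listed miRNAs, and the 16 leukocyte entries took between 0.162% and 0.248% of them. A limit of 3 counts corresponded to 0.158 to 0.404 TPM. The replicates of Hb stood apart from each other more than those of the other groups: ssc-miR-34c, a miRNA of meiotic and haploid germ cells, was at 1218, 1732 and 11014 TPM in Hb replicates 1, 2 and 3. The scaling factor that edgeR gave Hb replicate 2 was 0.694, the lowest of the 12. The labelled tissue is testis, and ssc-miR-202-5p, a marker of the somatic cells of the gonad, was at 13769 to 20071 TPM in the group means.

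The summed level of the 16 entries was 2001 ± 81.2 TPM in Ha and 1716 ± 272 in Hb, against 1998 ± 83.4 in La and 1884.7 ± 342.0 in Lb (mean ± SD, n = 3). The highest Hb library (1899 TPM) lay just below the lowest Ha library (1927 TPM), and the other comparisons overlapped. With ssc-miR-142-5p, the most abundant entry in Ha, La and Lb, left out of the sum, the group means were 1194, 1204, 896 and 1105 TPM in the same order.

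**Figure D1:**
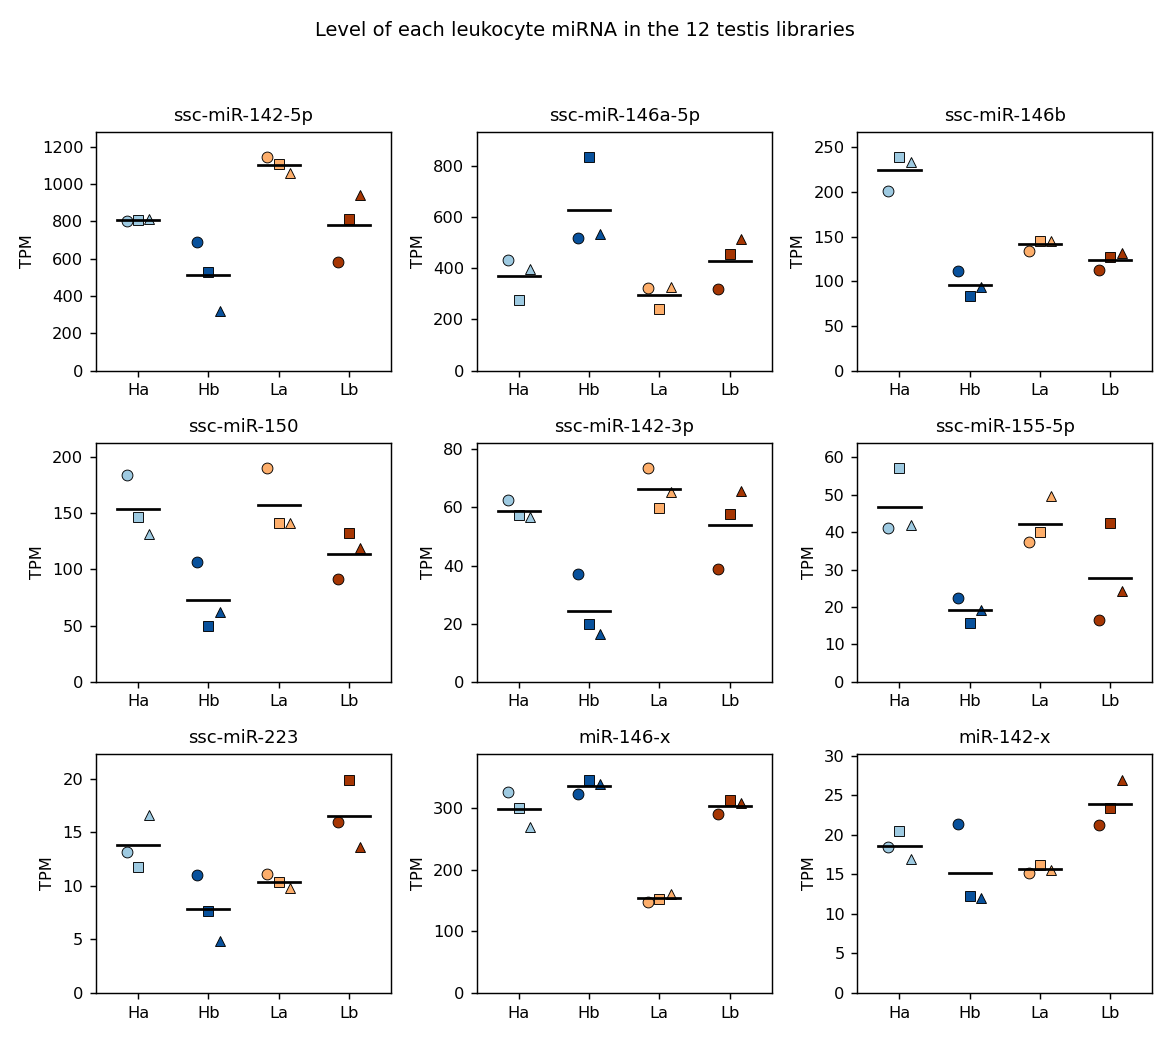
Level of each of the 9 leukocyte miRNAs in the 12 testis libraries, in TPM on a linear axis from 0, with 1 panel for each miRNA. Circles, squares and triangles stand for replicates 1, 2 and 3 and bars for group means. In HZ boars, ssc-miR-142-5p, ssc-miR-146b, ssc-miR-150, ssc-miR-142-3p, ssc-miR-155-5p and ssc-miR-223 lay lower in every Hb library than in any Ha library, and ssc-miR-146a-5p lay higher.

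The level of ssc-miR-142-5p, the main arm of the miRNA that marks all haematopoietic cells, was 801, 807 and 811 TPM in Ha and 688, 527 and 319 TPM in Hb. In LC boars it was 1142, 1105 and 1060.1 TPM in La and 584, 814 and 943 TPM in Lb. Both young groups lay above the 120-day-old group of their breed without overlap, La lay above Ha, and the 120-day-old groups overlapped. The order of the means was La, Ha, Lb, Hb, in which Ha overlapped with Lb and Lb with Hb. The other arm, ssc-miR-142-3p, was less abundant, at 62.5, 57.5 and 56.7 TPM in Ha and 36.9, 19.8 and 16.6 TPM in Hb. It was at 73.4, 59.9 and 65.2 TPM in La and at 38.9, 57.6 and 65.7 TPM in Lb. Its Hb libraries were the 3 lowest of the 12, and La and Lb overlapped.

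The lymphocyte miRNA ssc-miR-150 was at 184, 146.4 and 131.6 TPM in Ha and at 106, 49.5 and 61.9 TPM in Hb. It was at 189.9, 141 and 141 TPM in La and at 91.1, 132 and 119 TPM in Lb. The older group lay below the younger one in each breed without overlap, whereas breeds overlapped at either age. The activation-induced ssc-miR-155-5p was at 41.2, 57.0 and 41.9 TPM in Ha and at 22.5, 15.6 and 19.3 TPM in Hb. It was at 37.3, 40.0 and 49.7 TPM in La and at 16.5, 42.5 and 24.3 TPM in Lb. Ha and Hb did not overlap, while Lb replicate 2 lay within the range of La.

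The NF-kB responsive ssc-miR-146a-5p went the other way, with 430.3, 276 and 399 TPM in Ha and 518, 833 and 534 TPM in Hb. In LC boars it was at 323, 240.1 and 328 TPM in La and at 321, 455 and 513 TPM in Lb. In TPM, without the scaling factors of edgeR, every Hb library exceeded all other libraries, and La and Lb overlapped. The margin of ssc-miR-146a-5p was small, with 518 TPM in Hb replicate 1 and 513 TPM in Lb replicate 3. Its paralog ssc-miR-146b was at 201, 239 and 234 TPM in Ha and at 112, 83.9 and 93.4 TPM in Hb. It was at 134, 145.5 and 145.5 TPM in La and at 113, 128 and 132 TPM in Lb. Its means ranked in the order Ha, La, Lb, Hb, and no neighbours in that order overlapped. The extended form miR-146-x was at 326, 299.8 and 269 TPM in Ha and at 322, 346 and 339 TPM in Hb, with 147, 152 and 161 TPM in La and 291, 314 and 308 TPM in Lb. La stood alone below the other groups.

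The myeloid ssc-miR-223 was scarce, at 13.2, 11.8 and 16.6 TPM in Ha and at 11.0, 7.63 and 4.89 TPM in Hb. It was at 11.08, 10.3 and 9.75 TPM in La and at 15.95, 19.9 and 13.6 TPM in Lb. The older group was thus the lower one in HZ boars and the higher one in LC boars, in both breeds without overlap. The shifted form miR-142-x was at 18.4, 20.5 and 16.9 TPM in Ha and at 21.4, 12.2 and 12.0 TPM in Hb, with 15.2, 16.1 and 15.6 TPM in La and 21.2, 23.4 and 27.0 TPM in Lb. Ha and Hb overlapped, and Lb lay above La.

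The remaining 7 entries were scarce. With 10 to 117 counts a library, miR-142-y, a form of ssc-miR-142-3p that starts 1 base later, had group means of 2.18 to 5.96 TPM. miR-223-y, with 6 to 51 counts, had means of 1.34 to 2.76 TPM. miR-155-x, miR-146-y and miR-150-x had group means between 0.248 and 1.73 TPM. The passenger strand ssc-miR-155-3p and miR-223-x had 0 to 6 counts a library and means of 0.0375 to 0.419 TPM, partly from libraries with no count, which the deposited TPM writes as 0.01.

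The first comparison, Ha vs. Hb, asked what changed between 30 and 120 days of age in HZ boars. A DE miRNA was called with the thresholds of the study: a log2 fold change beyond 1 in either direction, and a p before adjustment of less than 0.05 in edgeR's quasi-likelihood test. Fold changes are on the log2 scale, positive where the group named second is higher, with the standard error after the sign ±. Of the 16 entries, 6 were called, 5 lower and 1 higher in Hb, and all 6 also had an adjusted p under 0.05. The background was high: 39.6% of all 1441 miRNAs tested were called (14.4% lower, 25.1% higher), and 31.6% with the adjusted p and the same fold.

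The miRNAs that fell in Ha vs. Hb came from 4 of the 5 families. ssc-miR-142-3p fell by 1.18 ± 0.310 (adjusted p = 0.00944) and ssc-miR-155-5p fell by 1.18 ± 0.303 (adjusted p = 0.00863). ssc-miR-146b fell by 1.10 ± 0.259 (adjusted p = 0.00512) and ssc-miR-150 fell by 1.02 ± 0.275 (adjusted p = 0.0112). The scarce miR-146-y, the other strand of a miR-146 hairpin, fell by 2.06 ± 0.713 (adjusted p = 0.0387), from 0.645, 2.23 and 1.20 TPM in Ha to 0.269, 0.327 and 0.257 TPM in Hb. Its Hb values were at or under the 3-count limit. ssc-miR-146a-5p was the only entry that rose, by 1.01 ± 0.349 (adjusted p = 0.0387).

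The other abundant entries did not pass the test in HZ boars. The difference was -0.52 ± 0.292 for ssc-miR-142-5p (adjusted p = 0.18), although its libraries did not overlap, and -0.70 ± 0.366 for ssc-miR-223 (adjusted p = 0.155). Both depended on single Hb libraries: without Hb replicate 2 they passed, at -0.79 (adjusted p = 0.00726) for ssc-miR-142-5p and -0.89 (adjusted p = 0.0484) for ssc-miR-223, and without Hb replicate 3 they were -0.26 and -0.44. The difference was 0.34 ± 0.275 for miR-146-x (adjusted p = 0.352) and -0.20 ± 0.318 for miR-142-x (adjusted p = 0.639). Over the 16 entries the median log2 fold change was -0.86 and 13 were negative, against a median of 0.32 over all miRNAs tested. Several of the 16 are arms or forms of the same hairpin and so are not independent. Over the 9 entries described in full the median was -0.70 and 7 were negative. In TPM, 11 of the 16 lay lower in Hb without overlap and 1 higher, against 20.7% and 23.0% of all miRNAs tested. The 11 included the scarce miR-155-x, miR-146-y and miR-150-x, with 2 to 8 counts in the Hb libraries.

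Single libraries decided several of these calls. Without Ha replicate 1 the count was 5, with ssc-miR-150 lost (-0.86, adjusted p = 0.0935). Without Ha replicate 2, in which ssc-miR-155-5p and miR-146-y were highest, 3 entries were called (ssc-miR-146b, ssc-miR-150 and ssc-miR-142-3p), and ssc-miR-146a-5p, ssc-miR-155-5p and miR-146-y were not. Without Hb replicate 1 the count was 4 (ssc-miR-146b and ssc-miR-155-5p were lost), without Hb replicate 3 it was 4 (ssc-miR-150 and ssc-miR-142-3p were lost), and 3 of each also had an adjusted p under 0.05. Without Hb replicate 2 the count was 5, with miR-142-y gained and ssc-miR-146a-5p and ssc-miR-150 lost. The rise of ssc-miR-146a-5p depended most on Hb replicate 2, its highest library: its log2 fold change was 0.48 without that library and 1.40 without Hb replicate 1. With the counts scaled by library size alone it was 0.78, below the threshold.

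**Figure D2:**
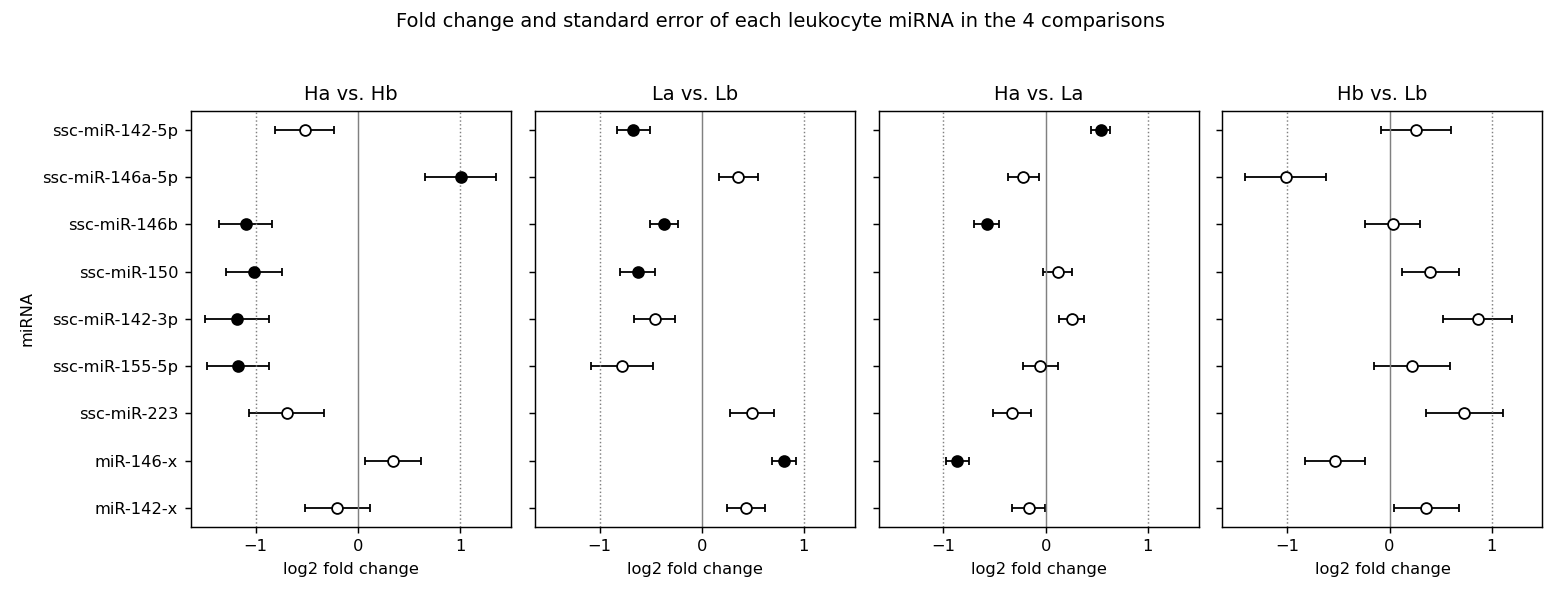
Log2 fold change (x axis) of the 9 leukocyte miRNAs (y axis) in the 4 comparisons, positive where the second group is higher, with bars of 1 standard error. Filled circles have an adjusted p under 0.05 and dotted lines mark the fold threshold of 1. ssc-miR-142-3p, ssc-miR-155-5p, ssc-miR-146b and ssc-miR-150 lie beyond -1 in Ha vs. Hb, and none of the 9 lies beyond the dotted lines in La vs. Lb or Ha vs. La.

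The same ages were compared in LC boars in La vs. Lb, with libraries separate from those of Ha vs. Hb. None of the 16 entries was called by edgeR, against 32.1% of the 1446 miRNAs tested, of which 26.3% were higher and 5.81% lower. DESeq2 called 0 as well, and 9 entries had an unadjusted p under 0.05 in edgeR, 3 higher and 6 lower in Lb, where 47.0% of all miRNAs did. With the adjusted p alone, 4 passed with smaller folds, 1 up and 3 down, where 26.8% of all miRNAs passed upwards and 13.4% downwards. miR-146-x rose by 0.81 ± 0.122 (adjusted p = 0.000196). ssc-miR-142-5p fell by 0.67 ± 0.164 (adjusted p = 0.00603), ssc-miR-150 fell by 0.63 ± 0.174 (adjusted p = 0.0121) and ssc-miR-146b fell by 0.37 ± 0.134 (adjusted p = 0.0432). With single libraries left out, the fold changes ranged from -0.80 to -0.48, from -0.85 to -0.47 and from -0.48 to -0.28 in the same order. From mean TPM alone, ssc-miR-150 was at -0.46 and ssc-miR-146b at only -0.19.

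Others moved by similar amounts in La vs. Lb without passing. The difference was -0.78 ± 0.304 for ssc-miR-155-5p (adjusted p = 0.059) and -0.46 ± 0.200 for ssc-miR-142-3p (adjusted p = 0.087). For ssc-miR-142-3p it ranged from -0.60 to -0.25 with single libraries left out. For ssc-miR-223 the difference was 0.49 ± 0.211 (adjusted p = 0.0845) and 0.67 from mean TPM alone. With single libraries left out it ranged from 0.23, without Lb replicate 2, to 0.64. The difference was 0.43 ± 0.183 for miR-142-x (adjusted p = 0.0812) and 0.36 ± 0.188 for ssc-miR-146a-5p (adjusted p = 0.155). The latter ranged from 0.23 to 0.55 with single libraries left out and was 0.53 from mean TPM alone. The median over the 16 entries was -0.35, against 0.32 over all miRNAs tested. In TPM, 3 entries lay lower in Lb without overlap and 3 higher, against 14.0% and 36.3% of all miRNAs. Lb replicate 2 held the highest ssc-miR-155-5p of its group, and without it 3 entries were called, ssc-miR-155-5p, miR-155-x and miR-150-x, with a fold change of -1.32 for ssc-miR-155-5p.

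Whether the change with age differed between the breeds was tested as an interaction over all 12 libraries, positive where the change was more upward in LC boars. No leukocyte entry had an adjusted p under 0.05 in edgeR, where 1.38% of all 1452 miRNAs did, and DESeq2 called 0 as well. At an unadjusted p under 0.05 there were 3, all positive, where 21.1% of all miRNAs passed. They were ssc-miR-223 at 1.13 ± 0.407 (adjusted p = 0.124), its longer form miR-223-y at 1.49 ± 0.572 (adjusted p = 0.14) and ssc-miR-146b at 0.67 ± 0.256 (adjusted p = 0.14). The interaction was 0.66 ± 0.351 for ssc-miR-142-3p (adjusted p = 0.294) and -0.71 ± 0.437 for ssc-miR-146a-5p (adjusted p = 0.381). The calls made in HZ boars and not in LC boars were therefore not shown to differ between the breeds.

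The breeds were compared at 30 days in Ha vs. La, which shares its libraries with the age comparisons. No entry was called by edgeR or DESeq2, against 9.47% of 1278 miRNAs tested (3.76% higher, 5.71% lower), and 4 had an unadjusted p under 0.05 in edgeR, where 24.7% of all miRNAs did. With the adjusted p alone 3 passed, 1 higher and 2 lower, where 11.3% of all miRNAs did (5.01% higher, 6.34% lower). ssc-miR-142-5p was 0.54 ± 0.0957 higher in LC boars (adjusted p = 0.00294). miR-146-x was lower, at -0.87 ± 0.113 (adjusted p = 0.000156), and so was ssc-miR-146b, at -0.58 ± 0.122 (adjusted p = 0.00749). Differences of ssc-miR-150 (0.12 ± 0.141) and ssc-miR-155-5p (-0.05 ± 0.172) were within their standard errors. In TPM, 5 entries lay lower in La without overlap and 2 higher, against 16.7% and 10.7% of all miRNAs.

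At 120 days, in Hb vs. Lb, 1 entry was called, lower in Lb, against 16.8% of 1444 miRNAs tested (8.45% higher, 8.38% lower). ssc-miR-146a-5p had a difference of -1.02 ± 0.395 (adjusted p = 0.153), and none of the 16 passed with the adjusted p, where 3.25% of all did. That call was lost without Hb replicate 2, where the difference was -0.32, without Lb replicate 1, and with scaling by library size, where it was -0.53. Without Hb replicate 2, 3 other entries were called, ssc-miR-142-3p, ssc-miR-223 and miR-142-y, all higher in Lb. With all libraries, ssc-miR-142-3p was at 0.86 ± 0.341 (adjusted p = 0.16) and ssc-miR-223 at 0.73 ± 0.381 (adjusted p = 0.282). In TPM, 7 entries lay higher in Lb without overlap and 2 lower, against 18.6% and 7.96% of all miRNAs. Among the 7, ssc-miR-155-3p, miR-146-y and miR-150-x had only 0 to 3 counts in the Hb libraries, at or under the 3-count limit. ssc-miR-146b was one of the 7, yet its difference was 0.03 ± 0.269 after TMM scaling and -0.02 with the size factors of DESeq2, so its direction at 120 days depended on the scaling.

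The forms of miR-146b were set against each other within each library, which needs no scaling between libraries. miR-146-x, the form with 3 more bases, made up 61.8%, 55.6% and 53.5% of the summed counts of miR-146-x and ssc-miR-146b in Ha and 74.2%, 80.5% and 78.4% in Hb. In LC boars it made up 52.3%, 51.1% and 52.6% in La and 72.0%, 71.1% and 70.0% in Lb. The longer form thus took a larger share at 120 days in both breeds without overlap, and a smaller share in LC than in HZ boars at either age. The means were 57.0 ± 4.32% in Ha and 77.7 ± 3.19% in Hb, and 52.0 ± 0.773% in La against 71.05 ± 1.02% in Lb (SD, n = 3). The widest 95% Wilson interval of a single library spanned 3.49 percentage points and covers counting error only. Between the breeds, the intervals of the closest libraries overlapped at both ages. They were 52.2 to 54.9% in Ha replicate 3 and 51.3 to 53.9% in La replicate 3. At 120 days they were 72.7 to 75.7% in Hb replicate 1 and 70.9 to 73.2% in Lb replicate 1.

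The pair was singled out after its values were seen, and with 3 libraries against 3 an exact two-sided permutation test cannot go below p = 0.1, so the comparison is given as a description. A total of 121 pairs of a longer entry and the ssc- entry it begins with had at least 50 summed counts in every library. The share of the longer form lay higher without overlap in 11.6% of these pairs in Ha vs. Hb and in 23.1% in La vs. Lb, and lower in 7.44% in Hb vs. Lb and 14.0% in Ha vs. La. The gain of miR-146-x in percentage points was at percentile 100 of the pairs, itself included, in Ha vs. Hb and at percentile 99.2 in La vs. Lb. A share near the middle of its range can move by more points than one near its limits. This rank can thus depend partly on the starting share. The corresponding shares of miR-155-x, miR-150-x and miR-223-y, which extend ssc-miR-155-5p, ssc-miR-150 and ssc-miR-223 at the 3′ end, overlapped between groups in all 4 comparisons.

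**Figure D3:**
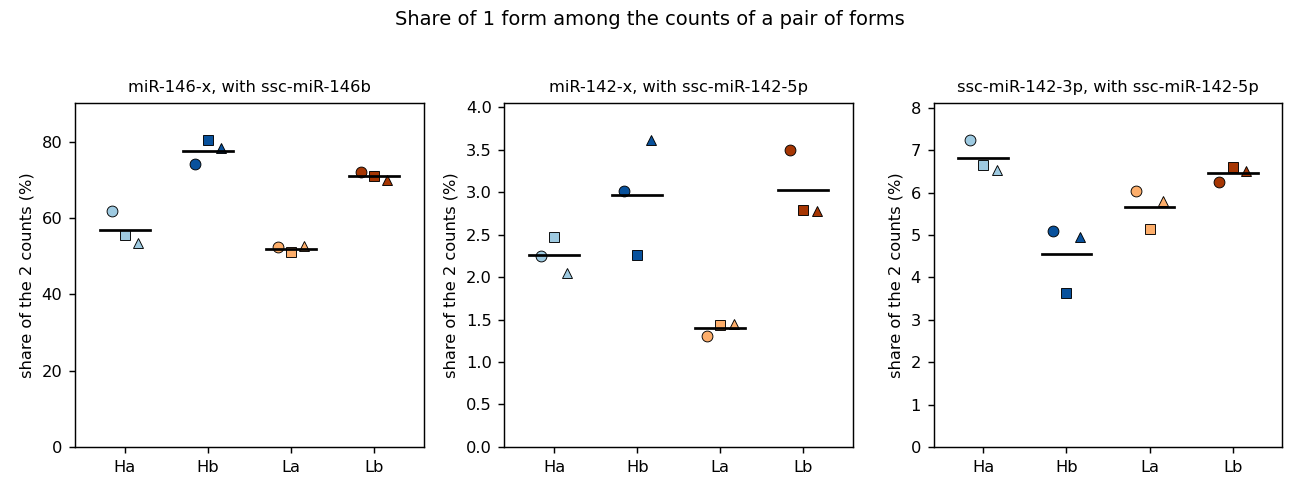
Share (%) of the first named form among the summed counts of a pair of forms, in each of the 12 libraries, with bars for group means and circles, squares and triangles for replicates 1, 2 and 3. The share of miR-146-x lies higher at 120 days in both breeds, and that of ssc-miR-142-3p is lowest in Hb.

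The arms of miR-142 were set against each other in the same way, as a description with no test. ssc-miR-142-3p made up 6.81 ± 0.380% of the counts of both arms in Ha and 4.56 ± 0.804% in Hb. In LC boars it made up 5.66 ± 0.461% in La and 6.46 ± 0.185% in Lb. The 3p share was lower in the older HZ boars and higher in the older LC boars, and no overlap was seen in any of the 4 comparisons. Among the 71 pairs of ssc- arms with at least 50 summed counts in every library, the 3p share lay lower without overlap in 29.6% in Ha vs. Hb and 14.1% in Ha vs. La. It lay higher in 16.9% of them in La vs. Lb and in 19.7% in Hb vs. Lb. The shifted 5p form miR-142-x made up 2.26 ± 0.215% of its counts with ssc-miR-142-5p in Ha and 2.97 ± 0.676% in Hb, against 1.40 ± 0.0753% in La and 3.03 ± 0.413% in Lb. It lay higher in Lb than in La and lower in La than in Ha without overlap, and Ha and Hb overlapped.

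Between families, each miRNA was also set against ssc-miR-142-5p within a library. Reads of the other miRNAs from cells that are not leukocytes would enter these ratios and were not told apart. The ratio of ssc-miR-146a-5p to ssc-miR-142-5p was 0.457 ± 0.102 in Ha and 1.34 ± 0.507 in Hb, with 0.270 ± 0.0476 in La and 0.551 ± 0.00770 in Lb. It was higher at 120 days in both breeds, and lower in LC than in HZ boars at either age, without overlap. For miR-146-x the ratio averaged 0.370 in Ha and 0.729 in Hb, with 0.140 in La against 0.403 in Lb, higher at 120 days in both breeds and lower in La than in Ha without overlap. For ssc-miR-146b it averaged 0.279 in Ha and 0.205 in Hb, with 0.129 in La against 0.163 in Lb. It was higher in Lb than in La and lower in La than in Ha without overlap, and the other comparisons overlapped. The ratio of ssc-miR-155-5p was 0.0579 in Ha and 0.0409 in Hb, with 0.0386 in La against 0.0354 in Lb, and La against Ha alone did not overlap. The ratio of ssc-miR-150 to ssc-miR-142-5p overlapped in all 4 comparisons, with means of 0.191, 0.148, 0.142 and 0.148 in Ha, Hb, La and Lb. For ssc-miR-223 the ratio was 0.0172 in Ha and 0.0153 in Hb, with 0.00942 in La against 0.0221 in Lb, higher in Lb than in La and lower in La than in Ha without overlap. Within the miR-146 family, the ratio of ssc-miR-146a-5p to ssc-miR-146b was 1.67 ± 0.492 in Ha and 6.76 ± 2.80 in Hb, with 2.11 ± 0.402 in La and 3.43 ± 0.535 in Lb. It lay higher at 120 days in both breeds without overlap, and the Hb libraries themselves ranged widely, at 4.63, 9.93 and 5.71 in replicates 1, 2 and 3.

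Markers of other cells in the testis moved between the same groups. The 10 erythroid entries (miR-144, miR-451 and miR-486, of red blood cells) summed to 1554 ± 205.9 TPM in Ha and to 2298, 1027 and 863 TPM in the Hb libraries. They summed to 2290 ± 154 TPM in La and 1244 ± 26.2 TPM in Lb. Of these 10, 4 were called lower and none higher in La vs. Lb, 1 was called lower in Ha vs. Hb, and 3 were called higher in Ha vs. La. The shares of all miRNAs tested that were called in those directions were 5.81%, 14.4% and 3.76%. In Ha vs. La ssc-miR-486 went the other way and fell by 0.46 (adjusted p = 0.0168), and miR-486-x, named after its values were seen, had a difference of -0.58 (adjusted p = 0.073). The scarce miR-486-y and miR-486-z, also named after their values were seen, were at -0.24 (adjusted p = 0.774) and 0.43 (adjusted p = 0.738). ssc-miR-144, the most abundant entry over all libraries, fell by 1.55 in La vs. Lb (adjusted p = 1.96e-07) and had a difference of -0.39 in Ha vs. Hb (adjusted p = 0.323). ssc-miR-451, more abundant than ssc-miR-144 in Hb and Lb, fell by 0.85 in La vs. Lb (adjusted p = 0.000108) and had a difference of 0.48 in Ha vs. Hb (adjusted p = 0.248). With the adjusted p alone, 6 erythroid entries passed downwards and 1 upwards in La vs. Lb, the latter miR-486-x at 0.91 (adjusted p = 0.00998), named after its values were seen. The erythroid sum was highest in La, where ssc-miR-142-5p was highest too, and its part in the leukocyte differences was not tested.

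Markers of germ cells and smooth muscle were higher at 120 days. ssc-miR-34c, the only listed entry of the germ-cell list, averaged 42.7 TPM in Ha against 4655 in Hb, and 16.2 TPM in La against 10530.3 in Lb, and rose in both age comparisons. The 9 smooth muscle entries (miR-143 and miR-145) summed to 29606 TPM in Ha and 77358 in Hb, and to 23834.5 TPM in La and 61307 in Lb. The part of these entries in the differences of the leukocyte miRNAs with age was not tested. In endothelium, ssc-miR-126-3p was at 8609 TPM in Ha and 6094 in Hb, and at 7140.3 TPM in La and 5008 in Lb. It fell in La vs. Lb (-0.68, adjusted p = 0.00224) and had a difference of -0.33 in Ha vs. Hb (adjusted p = 0.343), the only negative one of the 4 endothelial entries there. miR-126-y rose by 0.98 in Ha vs. Hb (adjusted p = 0.0275), and the median of the 4 was 0.30. In La vs. Lb all 4 were negative and 3 passed with the adjusted p, where 13.4% of all miRNAs passed downwards, with a median of -0.46. The 5 miR-202 entries of gonadal somatic cells were all negative in Ha vs. Hb, where 1 was called lower (against 14.4% of all miRNAs) and 3 passed downwards with the adjusted p. Of these, ssc-miR-202-3p was at -0.86 (adjusted p = 0.0158). In La vs. Lb edgeR called none of the 5, while 1 higher and 1 lower had an unadjusted p under 0.05, the latter passing with the adjusted p as well. Of the entries of cells not expected to be abundant, the 9 striated muscle ones summed to 152 to 757 TPM in the group means, with ssc-miR-1 at 512 TPM in Lb. The 6 epithelial ones summed to 59.8 to 99.5 TPM and miR-122 of liver to 12.1 to 38.7 TPM. Of the striated muscle entries 6 were called higher in each age comparison, where the share of all miRNAs was 25.1% for HZ and 26.3% for LC boars. Their part in the differences of the leukocyte miRNAs was not tested.

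**Figure D4:**
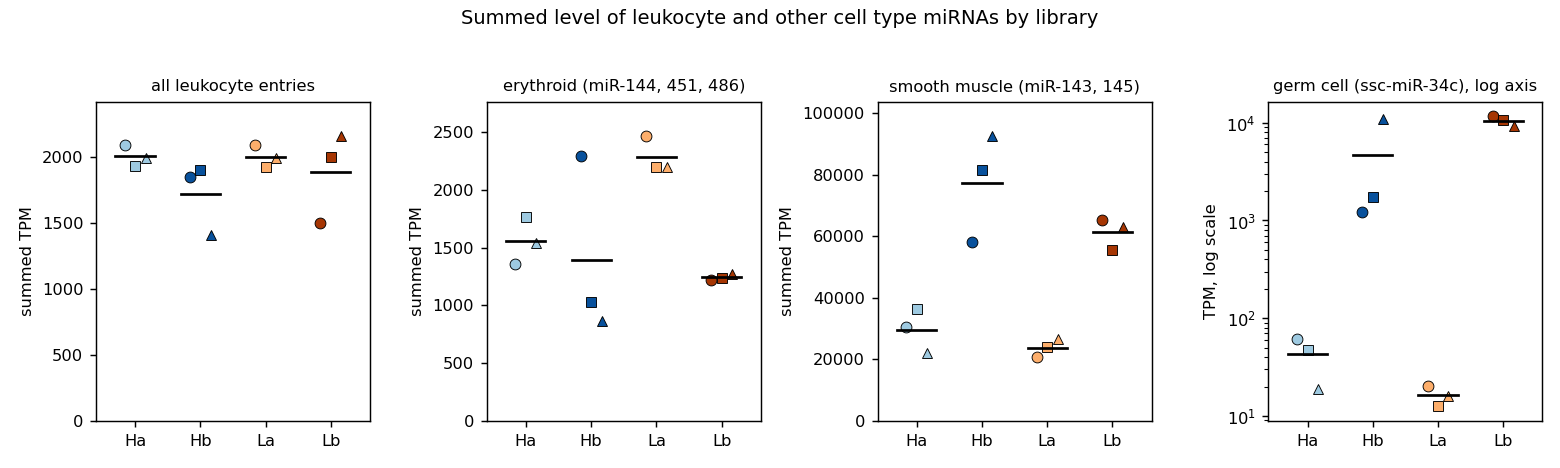
Summed TPM of the 16 leukocyte entries and of the erythroid, smooth muscle and germ-cell entries in each library, the last on a log axis, with bars for group means and circles, squares and triangles for replicates 1, 2 and 3. The leukocyte sums lie between 1403.5 and 2156 TPM, while those of smooth muscle and germ cells are higher at 120 days in both breeds.

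Other miRNAs are described in immune cells but widely expressed. Of 49 such entries, which include ssc-miR-125b, ssc-miR-125a, ssc-miR-21-5p and ssc-miR-181a, 9 were called lower and 6 higher in Ha vs. Hb, and 10 lower and 4 higher in La vs. Lb. Of all miRNAs tested, 14.4% were called lower and 25.1% higher in Ha vs. Hb, and 5.81% lower and 26.3% higher in La vs. Lb. ssc-miR-125a, the second most abundant of these, fell by 1.17 in Ha vs. Hb (adjusted p = 0.00236). ssc-miR-181a, which sets the sensitivity of T cell receptors, fell by 1.09 in La vs. Lb (adjusted p = 7.86e-07). Other entries of this list, named after their values were seen, rose. ssc-miR-29a-3p rose by 2.23 in Ha vs. Hb (adjusted p = 0.000159) and by 0.56 in La vs. Lb (adjusted p = 0.00329). ssc-miR-29b rose by 2.60 in Ha vs. Hb (adjusted p = 7.73e-05) and by 1.52 in La vs. Lb (adjusted p = 9.84e-06). Of 18 entries induced by inflammatory signals, 10 were called higher and 4 lower in Ha vs. Hb, and 9 higher and 1 lower in La vs. Lb, to be read against the same shares of all miRNAs. ssc-miR-21-5p, the most abundant of the 18, had a difference of -0.58 in Ha vs. Hb (adjusted p = 0.0552) and 0.08 in La vs. Lb (adjusted p = 0.594). The scarcer miR-21-x, named after its values were seen, fell by 0.94 in Ha vs. Hb (adjusted p = 0.0196). The entries named miR-9 are not independent: ssc-miR-9-1 and ssc-miR-9-2 list the same sequence, which neurons also express, and ssc-miR-9 is 1 base shorter. ssc-miR-9-1 and ssc-miR-9-2 rose by 3.32 in Ha vs. Hb (adjusted p = 1.01e-05) and by 3.22 in La vs. Lb (adjusted p = 5.46e-09).

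The miRNAs outside these families whose level followed a leukocyte miRNA most closely were sought among 411 entries with a mean of at least 10 TPM, by Pearson's r of log2(TPM + 1). All 12 points share their libraries and fall into the 2 ages, so r is a description. For ssc-miR-142-5p the closest was miR-451-x, a form of the erythroid miR-451, with r = 0.84 over the 12 libraries, 0.83 within the 30-day-old and 0.71 within the 120-day-old libraries. It was nearly tied with miR-148-z and ssc-let-7e (r = 0.83 for each), and miR-148-z ranked first with 0.1 added to the TPM in place of 1. For ssc-miR-150 it was ssc-miR-139-3p (r = 0.93, and 0.75 and 0.92 within the ages). For ssc-miR-146b it was miR-450-x (r = 0.90), and for miR-142-x it was miR-124-y (r = 0.92). With 0.1 added, ssc-let-7f-5p was the closest to ssc-miR-146b (r = 0.90). Some values of r differed between the ages: for ssc-miR-155-5p and miR-10-x r was 0.90 over all libraries, 0.01 within the 30-day-old and 0.85 within the 120-day-old ones. For ssc-miR-142-3p and miR-148-z r was 0.93 over all libraries, 0.07 at 30 days and 0.93 at 120 days. For ssc-miR-223 and miR-152-y r was 0.80 over all libraries, -0.44 at 30 days and 0.90 at 120 days. ssc-miR-146a-5p was closest to ssc-miR-192 (r = 0.85, with 0.40 at 30 days and 0.83 at 120 days). miR-146-x was closest to a predicted miRNA (r = 0.86, with 0.88 at 30 days and -0.17 at 120 days).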

How the data were processed

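Small RNA libraries of testis were sequenced for 4 groups of 3. According to the methods, the authors filtered reads with fastp 0.18.0, removed tags matching other RNAs, exons, introns and repeats, and matched the rest to miRBase 22.1. The deposited counts are whole-number tag counts per miRNA and library, without normalization. The deposited TPM scales each count by a library total and writes a count of 0 as 0.01. Libraries were grouped by breed and age, and every per-sample column was mapped to a sample.

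Counts were tested with edgeR 4.0.16 in R 4.3.3 (glmQLFit and glmQLFTest, TMM), in a separate fit of 6 libraries for each comparison, over all miRNAs with at least 1 count, and in 1 fit of 12 for the interaction. Benjamini-Hochberg adjustment ran over all miRNAs tested. Standard errors are the absolute log2 fold change divided by the square root of F. The fits were tested on simulated data. Alternatives were RLE and library-size scaling, DESeq2 1.42.0, an expression filter, robust estimation, merged sequences, a joint fit, a replicate block and leaving out each library. Library-size scaling moved the median log2 fold change of all miRNAs by 0.22 (La vs. Lb), 0.27 (Hb vs. Lb), -0.08 (Ha vs. Hb) and -0.10 (Ha vs. La). Shares have 95% Wilson intervals, which cover counting error only.

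The 16 miRNAs, the marker lists and the rule for naming were chosen with earlier results of these data known. Every entry matching the 5 names was kept, those with a group mean of at least 10 TPM are given in full, and up to 4 entries per list and 3 most similar miRNAs per entry could be named. Entries said to be named after their values were seen lie outside that rule. The deposited properties of predicted hairpins were not used.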

Additional observations from a re-analysis of the deposited data

Results flagged for a closer look

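The levels of ssc-miR-223, the myeloid miRNA, were ordered in opposite ways by age in the breeds: its TPM was lower in every Hb library than in any Ha library and higher in every Lb library than in any La library. Of the 1452 miRNAs, 16 (1.1%) showed this pattern of levels. Neither difference with age passed in edgeR, at -0.70 in Ha vs. Hb (adjusted p = 0.155) and 0.49 in La vs. Lb (adjusted p = 0.0845). With single libraries left out the latter ranged from 0.23, without Lb replicate 2, to 0.64. The difference between the changes with age, tested with edgeR, was 1.13 on the log2 scale (adjusted p = 0.124), so it did not pass after adjustment. It ranged from 0.873 without Hb replicate 3 to 1.51 with library-size scaling, and the adjusted p from 0.0573 without Hb replicate 2 to 0.237 without La replicate 3.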

How the results depend on the processing

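Depth limited most the scarcest entries, ssc-miR-155-3p with 0 to 6 and miR-223-x with 0 to 3 counts a library, and 3 libraries a group limit every comparison. Of the tested values for single miRNAs, 637 kept their direction and their status as called or not called, 19 lost the call, 7 gained it and 12 reversed. Of the values with no test, 38 moved by less than their error or the tolerance set, 8 moved by more and 3 reversed. From mean TPM alone, ssc-miR-146a-5p was at 0.77 in Ha vs. Hb, under the fold threshold. The cause of each shift below was not tested.

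In Ha vs. Hb, 3 entries were called with the adjusted p under the expression filter, which tested 12 of the 16. In La vs. Lb, 1 was called with library-size scaling, also with the adjusted p (miR-146-x, 1.02), and 1 in the joint fit of all libraries (miR-155-x). In Hb vs. Lb, 3 were called with library-size scaling, all higher in Lb and none with the adjusted p (ssc-miR-142-3p, ssc-miR-223 and miR-142-y), and in the joint fit miR-142-y was called in place of ssc-miR-146a-5p. Leaving out 1 library at a time gave 3 to 6 calls in Ha vs. Hb (3 to 5 adjusted), 0 to 3 in La vs. Lb (0 to 2 adjusted), 1 to 3 in Hb vs. Lb (0 to 1 adjusted), and 0 in Ha vs. La and the interaction. miR-155-x was called in La vs. Lb without La replicate 2 and miR-146-y without Lb replicate 3, and ssc-miR-146a-5p passed with the adjusted p in Hb vs. Lb without Hb replicate 1. ssc-miR-150 lay under the fold threshold in Ha vs. Hb with RLE scaling, DESeq2 and the expression filter (-0.96 to -0.98).

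Values near 0 changed sign. For ssc-miR-146b in Hb vs. Lb they were -0.0177 with RLE scaling, -0.0173 with DESeq2 and -0.016 with the expression filter, and single libraries left out gave -0.0718 to 0.2517. ssc-miR-155-5p ranged from -0.1886 to 0.1107 in Ha vs. La, from -0.2152 to 0.4994 in Hb vs. Lb and from -0.1244 to 0.6152 in the interaction. ssc-miR-150 in Ha vs. La ranged from -0.0152 to 0.2144. The interaction of ssc-miR-142-5p was 0.1841 with library-size scaling and -0.47 to 0.1473 with libraries left out. Without ssc-miR-142-5p, the log2 ratio of the summed TPM was -0.125 in Hb vs. Lb, 0.0119 in Ha vs. Hb, -0.415 in Ha vs. La and 0.302 in La vs. Lb.

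The labels give the groups the same replicate numbers. Deviations of same-numbered libraries from their group means had correlations of -0.324 to 0.201, and the main fits did not pair them. With 3 libraries a group, such correlations cannot tell whether libraries of the same number shared a batch. With a replicate block, 5 entries were called in Ha vs. Hb (4 adjusted), 0 in La vs. Lb and 0 in Hb vs. Lb, where ssc-miR-146a-5p was at -0.86.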
